A study of Chamaelirium luteum with 2 samples.

Results

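Scaffolds 2, 6, 7 and 13 of the Chamaelirium luteum (Cha. luteum) assembly carry segments exchanged between chromosomes relative to the holocentric sister genus Chionographis, and none of these 4 is among the scaffolds with a centromere interval mapped by CENH3 chromatin immunoprecipitation. Every ATAC-seq peak on these scaffolds was taken, placed at its summit. This gave 12008 of 39233 peaks in replicate 1 and 12510 of 41385 peaks in replicate 2, or 30.6% and 30.2% of the lists. The series holds 2 libraries of 1 condition, replicates 1 and 2, each from about 75000 nuclei of fresh Cha. luteum leaves, without a treatment other than the Tn5 transposase itself and without a control group. The peak names of replicate 2 carry another code than its label does, and what the code stands for is not stated. The label was followed, and the values of both libraries are given throughout. Nothing states that the 2 libraries came from separate plants, so the SD between them may be technical.

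ATAC-seq detects accessible chromatin, since Tn5 inserts sequencing adapters into DNA that nucleosomes leave free. In plant leaves such sites lie mostly at promoters and other regulatory elements of genes, and long arrays of repeats are poor in them. Cha. luteum is a monocentric plant with very large satellite-based centromeres, and a translocation joins segments of different chromosomes, so that 1 scaffold can hold blocks of distinct origin. The translocation breakpoints, the gene annotation and the genome sequence were not used here, so the peaks could not be set against breakpoints or genes. A peak has a start, an end and a summit, its position of highest signal, and the peak caller MACS gives each summit a fold enrichment over the local background and a q-value. From these values the number of sequenced fragments stacked at each summit was recovered. Only whole numbers were tried. With the best of them the listed -log10 p-value was met to within a relative difference of 0.0001 in 100% of cases. A typical summit had 32 fragments in replicate 1 and 33 in replicate 2 (medians), with a minimum of 11 in both, so that no site with fewer fragments is listed.

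The 4 scaffolds carried accessible sites at almost the same density. Scaffold 2 had 67.8 summits per Mb in replicate 1 and 69.8 in replicate 2, from 4444 and 4574 peaks. Scaffold 6 had 63.8 and 67.3 summits per Mb, from 3038 and 3203 peaks. Scaffold 7 had 65.5 and 68.7, from 2881 and 3022 peaks. Scaffold 13, the shortest of them, had 66.4 and 69.0, from 1645 and 1711 peaks. Replicate 2 was higher on each of the 4. The libraries of scaffold 6 lay below those of scaffold 2, and the ranges of all other pairs of these scaffolds overlapped. Within each library the order was the same, with scaffold 2 highest, then 13, then 7, and scaffold 6 lowest. Together the 4 scaffolds had 67.4 ± 1.95 summits per Mb (SD over 2 libraries). Peaks covered 2.84% of the length of the 4 scaffolds in replicate 1 and 2.94% in replicate 2.

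Set among all 22 large scaffolds, with centromeres left out, the mean densities of the 4 fell in a narrow band from 65.5 to 68.8 summits per Mb, while the 18 other scaffolds ranged from 24.6 on the arms of scaffold 17 to 72.8 on scaffold 14. Of these 18 scaffolds, 4 lay above the band, 2 within it and 12 below it. The 10 other scaffolds without a listed centromere had 61.7 ± 2.09 summits per Mb together, 5.64 ± 0.134 fewer than the 4 (lower in 2 of 2 libraries; exact permutation test by two-sided sign flips of the libraries, p = 0.5, the smallest p that 2 libraries allow). This difference was 1.15 ± 0.175 without scaffold 9, which had 42.2 summits per Mb. The arms of the 8 scaffolds with a centromere had 59.5 ± 2.84 summits per Mb, 7.94 ± 0.890 fewer than the 4 (lower in 2 of 2 libraries, exact permutation p = 0.5). No comparison over 2 libraries can pass a threshold of 0.05, so none of these differences is called.

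**Figure D1:**
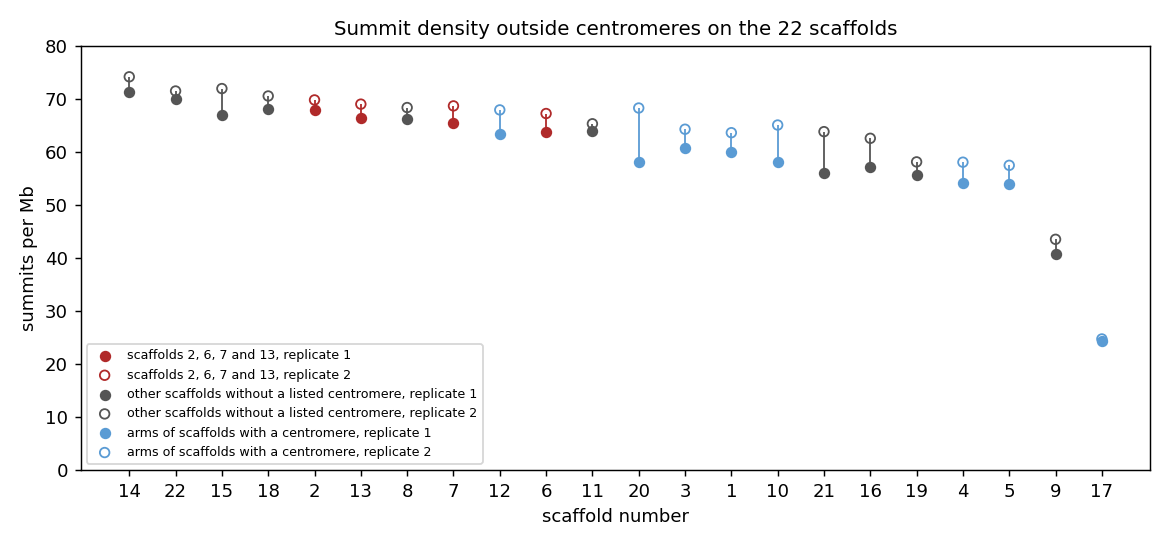
Summits per Mb (vertical axis) on each of the 22 scaffolds, ordered by their mean, with centromeres left out; filled points are replicate 1, open points replicate 2 and the line joins them. Scaffolds 2, 6, 7 and 13 lie between 63.8 and 69.8, inside the upper part of the range, with scaffolds 9 and 17 far below the rest.

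Accessible sites ran along the whole length of the 4 scaffolds, with domains above and below the average in each. Each scaffold was cut into 10 segments of equal length, numbered from its start. The mean density of the libraries on scaffold 2 went from 55.9 summits per Mb in segment 7 to 79.8 in segment 3. On scaffold 6 it went from 53.4 in segment 7 to 75.7 in segment 6. On scaffold 7 both ends were lowest, with 53.1 in segment 1 and 43.1 in segment 10, followed by 55.2 in segment 7, and segment 4 was highest with 80.4. Scaffold 13 was lowest in segment 1, with 44.8, and highest in segment 6, with 82.1. Segment 7 was thus the lowest or the lowest inner segment on scaffolds 2, 6 and 7, whereas scaffold 13 had 78.7 there.

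In windows of 1 Mb the 4 scaffolds held 3.5 to 101.5 summits, as the mean of the libraries, with a median of 68.5 over 179 windows. The middle of this distribution was the same in all: the median was 68.5 on scaffold 2, 67.5 on scaffold 6, 68.0 on scaffold 7 and 69.5 on scaffold 13. Counts of both libraries followed each other from window to window, with a Spearman correlation of 0.947 over the 179 windows, a description of windows that share 2 libraries. Replicate 2 had the higher count in 126 windows and replicate 1 in 42. The variance of the counts was 3.82 ± 0.0893 times their mean (SD, n = 2), from 2.99 on scaffold 6 to 4.88 on scaffold 13. Scaffold 13 had only 24 windows, and its first Mb held 3.5 summits, against a 5th percentile of 49.6. Its ratio without this window was not computed. The variance was 7.39 ± 0.150 times the mean on the 10 other scaffolds without a listed centromere and 5.19 ± 0.207 times on the arms of the 8 scaffolds with one. Neighbouring windows of 1 Mb had a Pearson correlation of 0.231 over 175 pairs, against 0.583 over 198 pairs on the 10 other scaffolds and 0.436 over 213 pairs on the arms. Both values of the 10 rested on scaffold 9: without it the variance was 3.40 ± 0.139 times the mean and the correlation 0.0552 over 160 pairs, each below that of the 4.

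On scaffold 2 the fullest windows were that from 16000001 to 17000000, with 100 summits in replicate 1 and 103 in replicate 2, and that from 57000001 to 58000000, with 98 and 102. Its emptiest were that from 40000001 to 41000000, with 36 and 32, and its first Mb, with 30 and 40. On scaffold 6 the fullest were those that begin at 20000001, with 97 and 94 summits, and at 13000001, with 84 and 90. The emptiest there began at 29000001, with 30 and 35, and at 44000001, with 31 and 40. Each of these 8 windows kept its side of the median in both libraries. On scaffold 7 a full and an empty window were neighbours: the window from 26000001 to 27000000 held 88 and 98 summits, and the next, from 27000001 to 28000000, held 22 in each library. The other extreme windows of scaffold 7 began at 6000001, with 95 and 99 summits, and at 41000001, with 33 and 36. On scaffold 13 the fullest windows began at 13000001, with 93 and 96, and at 17000001, with 86 and 89. The first Mb of scaffold 13 held 3 and 4 summits, and its next emptiest window, from 9000001, still held 48 and 51.

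At 100 kb most windows still held a summit. Of 1817 such windows on the 4 scaffolds, 48 had none in replicate 1 and 42 in replicate 2, and 36 of these were empty in both. That is 2.64% and 2.31%, where 4.71% and 4.18% of all 6288 windows outside the centromeres were empty. The share was 1.91% ± 0.108 on scaffold 2, 1.94% ± 0.483 on scaffold 7, 2.94% ± 0.297 on scaffold 6 and 4.05% on scaffold 13, with 10 empty windows of 247 in each library. Most of these 10 windows lay in 1 stretch near the start of scaffold 13, from 11148 to 904598, without a peak in either library. The 10 other scaffolds without a listed centromere had 6.91% ± 0.433 empty windows, a difference of -4.43 ± 0.20 percentage points (4 minus 10, exact permutation p = 0.5). Without scaffold 9 the difference was 0.0128 ± 0.0285 points and had opposite signs in the 2 libraries.

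Domains were defined as runs of at least 2 neighbouring 500-kb windows that were all low or all high. The median 500-kb window outside centromeres held 32 summits; a window was counted as peak-poor at 0.6 times this or less and as peak-rich at 1.3 times or more. Peak-poor were 31 of 362 windows on the 4 scaffolds, or 8.56%, where 13.5% of all 1245 windows were. They were 11 of 131 on scaffold 2, 10 of 95 on scaffold 6, 7 of 87 on scaffold 7 and 3 of 49 on scaffold 13. On the 10 other scaffolds without a listed centromere they were 69 of 421, or 16.4%. On the arms of the 8 scaffolds with a centromere they were 68 of 462, or 14.7%. The shares of the 10 and of all windows include scaffold 9 and were not computed without it. Of the 31, 23 stood alone, and the others formed 1 peak-poor domain of 1 Mb on each scaffold. The 10 other scaffolds without a listed centromere had 8 such domains with 24.5 Mb in all, of which 16.5 Mb was a single domain of scaffold 9, and the arms of the 8 scaffolds with a centromere had 15.

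The peak-poor domain of scaffold 2 ran from 39500001 to 40500000 and held 24 summits in replicate 1 and 25 in replicate 2. Its density of 24.5 summits per Mb was 35.6% of that of the scaffold. That of scaffold 6, from 29500001 to 30500000, also held 24 and 25 summits, 37.4% of the density of its scaffold. That of scaffold 7, from 27000001 to 28000000, held 22 in each library, or 32.8%. The counts of these 3 domains were within 3 summits of each other. They lay at like places along their scaffolds: from 60.3% to 61.8% of the length of scaffold 2, from 61.9% to 64.0% of scaffold 6 and from 61.4% to 63.6% of scaffold 7, counted from the start of the scaffold. The direction in which a scaffold is written in an assembly is arbitrary, and the likeness of the places was noticed in the data and not tested.

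Their surroundings differed. The 500 kb to the left of the domain of scaffold 7 held 55 and 66 summits, the fullest 500-kb window of the 4 scaffolds, and the 500 kb to its right 22 and 23, so that the left border was steep. On scaffold 6 the flanks held 17 and 24 summits to the left and 24 and 25 to the right, so the domain was the bottom of a wider trough. On scaffold 2 they held 32 and 31 to the left and 23 and 20 to the right. With the windows moved by 250 kb the domains of scaffolds 2, 6 and 13 were found again and that of scaffold 7 was not, and with runs of 4 windows of 250 kb only those of scaffolds 2 and 13 were.

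The peak-poor domain of scaffold 13 was the emptiest and the only one at an end. It took up the first Mb. Replicate 1 had no peak before 904599 and replicate 2 had 1, from 10904 to 11147, with 15 fragments at its summit, a -log10 q of 4.73 and no partner in replicate 1. After this came a stretch without a peak in either library from 11148 to 904598. The remaining 3 peaks of each library stood together between 904599 and 907044 and overlapped between the libraries. The strongest, at 905533 to 906123 in the first library and 905394 to 906173 in the other, had a fold of 9.19 and 10.5, with 96 and 119 fragments. The background at these 3 summits was 9.52 to 9.59 fragments in replicate 1 and 10.4 to 10.5 in replicate 2, above the median of the scaffold, while that of the lone peak of replicate 2 was 3.18.

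Peak-rich windows numbered 73 of 362 on the 4 scaffolds, or 20.2%, where 16.0% of all 1245 windows were peak-rich. On the 10 other scaffolds without a listed centromere they were 70 of 421, or 16.6%. This share includes scaffold 9 and was not computed without it. On the arms of the 8 scaffolds with a centromere they were 56 of 462, or 12.1%. Scaffold 2 had 31 of 131, scaffold 6 had 15 of 95, scaffold 7 had 18 of 87 and scaffold 13 had 9 of 49. Those on the 4 scaffolds formed 13 domains with 15.5 Mb in all, and 42 windows stood alone. The 10 other scaffolds had 12 peak-rich domains with 13 Mb in all, and the arms had 11 with 15 Mb. Scaffold 2 held 6 of the 13. Its longest ran from 56000001 to 58000000, with 190 and 195 summits, and the others began at 15500001 (137 and 151 summits in 1.5 Mb), 22500001 (99 and 96 in 1 Mb), 30500001 (85 and 86 in 1 Mb), 48000001 (95 and 90 in 1 Mb) and 51000001 (142 and 141 in 1.5 Mb). Scaffold 6 had 3, beginning at 13000001 with 84 and 90 summits, at 19500001 with 140 in each library over 1.5 Mb, and at 41500001 with 84 and 90. Scaffold 7 had 3 of 1 Mb each, beginning at 6000001 with 95 and 99 summits, at 15500001 with 110.5 as the mean of the libraries, the densest of all 13, and at 35500001 with 99 and 95. The peak-rich domain of scaffold 13, from 13000001 to 14000000, held 93 and 96. The count of rich domains depended on how they were drawn: it was 4 with runs of 4 windows of 250 kb and 20 with only the peaks found in both libraries.

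**Figure D2:**
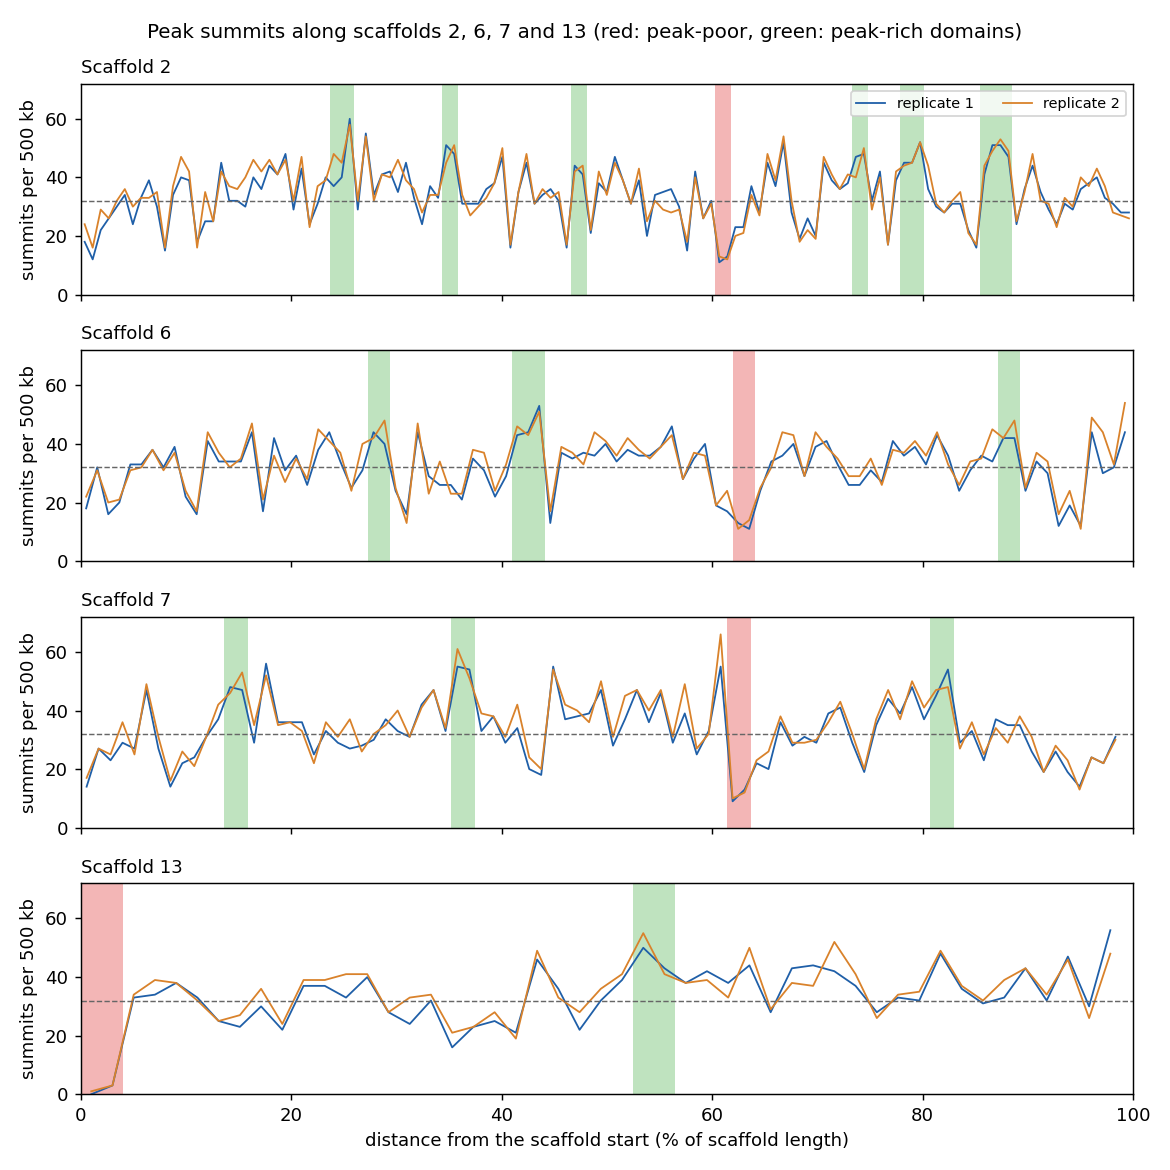
Summits per 500-kb window (vertical axis) along scaffolds 2, 6, 7 and 13, with the distance from the scaffold start as a share of scaffold length (horizontal axis), replicate 1 in blue and replicate 2 in orange; the dashed line is the median window of 32, red bands are peak-poor and green bands peak-rich domains. The libraries follow each other closely, and the red bands of scaffolds 2, 6 and 7 lie between 60.3% and 64.0% of the length, that of scaffold 13 at its start.

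The peaks of the poor domains were pooled. Most came from scaffolds 2, 6 and 7, and the few of scaffold 13 were wider and on a higher background, as given above. There were 74.5 ± 2.12 of them per library, against 1466.5 ± 20.5 in the rich domains and 10718 ± 332 elsewhere on the 4 scaffolds (SD, n = 2). Their median width was 346 ± 1.41 bp, and 369.5 ± 3.54 bp elsewhere and 382 ± 6.01 bp in the rich domains. A median of 24.3 ± 0.354 fragments was stacked at their summits, against 32.5 ± 0.707 elsewhere and 35.5 ± 0.707 in the rich domains. The background moved in the same order, from 3.28 ± 0.141 fragments in the poor domains over 5.54 ± 0.223 elsewhere to 6.11 ± 0.275 in the rich ones. The lowest background that MACS used, its genome-wide value, was 3.38 fragments in replicate 1 and 3.18 in replicate 2, and 63.7% ± 1.03 of the peaks in the poor domains stood at it, against 13.5% ± 0.156 elsewhere and 8.28% ± 0.415 in the rich domains. The domains of scaffolds 2, 6 and 7 each held only 22 to 25 peaks per library, and their medians varied. On scaffold 2 the median width was 372.5 bp in replicate 1, against 372 bp elsewhere, and 336 bp in replicate 2. It was 328 and 350 bp on scaffold 6 and 312 and 346.5 bp on scaffold 7. The median fragments were 22 and 24, 25.5 and 31, and 22 and 19.5 on these scaffolds. As pooled, the libraries did not overlap between the 3 classes in fragments, background, the share at the floor or width. Fewer mapped fragments thus lay around the peaks of the poor domains of scaffolds 2, 6 and 7. These domains were chosen for few peaks, and a close neighbour can enter the window of the local background. Peaks of the 4 scaffolds with their nearest summit at 20 to 50 kb had a median background of 4.02 and 3.66 fragments. Of these, 34.9% and 40.4% stood at the floor. At 1 to 5 kb the background was 7.18 and 6.82 fragments, with 4.15% and 3.94% at the floor. How far the low background and the low peak counts depend on each other was not tested. Among the 3 classes of region the median fold went the other way from the background. It was 5.26 and 5.86 in the poor domains, 4.86 and 5.14 elsewhere and 4.84 and 5.19 in the rich ones, where the latter 2 classes overlapped. Not every poor domain was above elsewhere. That of scaffold 7 had 4.82 in replicate 2, and that of scaffold 13 had 3.33 and 3.54. The share of peaks found in both libraries was 80.6% ± 2.29 in the poor domains and 81.3% ± 2.55 elsewhere. Their ranges overlapped, though the poor domains were slightly lower in each library. It was 84.3% ± 1.13 in the rich domains, above both other classes in each library.

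**Figure D3:**
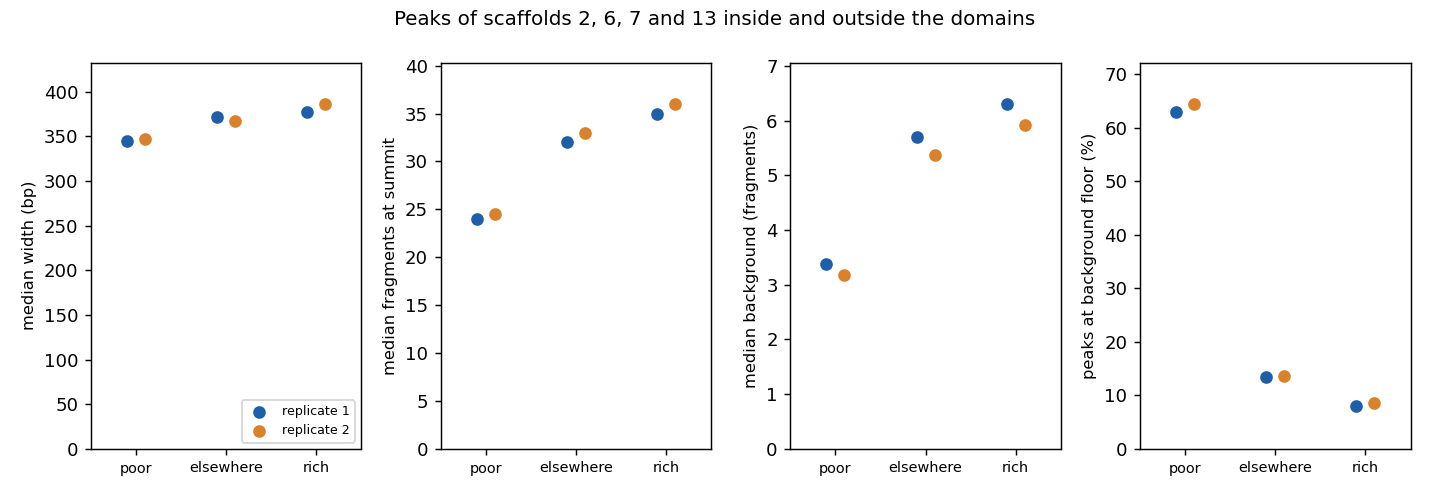
Median peak width, median fragments at the summit, median background and the share of peaks at the genome-wide background (vertical axes from 0), for peaks in the 4 peak-poor domains, in the 13 peak-rich domains and elsewhere on scaffolds 2, 6, 7 and 13; each point is 1 library. Background and fragments are lowest in the poor domains, where over 60% of the peaks stand at the floor.

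Peak width hardly differed between the 4 scaffolds. The median was 372 bp in both libraries on scaffold 2, 370 and 367 bp on scaffold 6, 375 and 370 bp on scaffold 7 and 375 and 366 bp on scaffold 13. The values of scaffold 6 lay below those of scaffold 2, by 2 to 5 bp, and the ranges of all other pairs overlapped. Scaffold 6 was also below scaffold 7 within each library. Over the 4 scaffolds, the quartiles of width were 261 and 535 bp in replicate 1 and 260 and 530 bp in replicate 2, and the 95th percentiles were 868 and 869 bp. The narrowest peaks of the lists were 179 and 177 bp, and 7.44% and 8.11% of the peaks were no wider than 200 bp. At the other end, 317 and 332 peaks were at least 1 kb wide, 2.64% and 2.65%. The share of these wide peaks was 2.24% on scaffold 13, 2.58% on scaffold 6, 2.66% on scaffold 2 and 2.93% on scaffold 7, as means of the libraries. The median width of the 10 other scaffolds without a listed centromere was 368.5 ± 0.707 bp, 2.75 ± 1.06 bp less (exact permutation p = 0.5); with only the peaks found in both libraries the difference was -0.25 bp and had opposite signs in the 2 libraries.

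Wider peaks were also higher. Over the peaks of the 4 scaffolds, width and the number of fragments at the summit had a Spearman correlation of 0.619 in replicate 1 and 0.621 in replicate 2, a value over peaks of 1 library that share its depth. The median width went from 238 and 235.5 bp for peaks with a -log10 q of 2 to 5 to 651.5 and 615.5 bp for those of 50 or more. The summit stood near the middle of the peak, at 49.2% and 49.0% of its width in the median. The median fold was 4.79 to 4.92 on the 4 scaffolds in replicate 1 and 5.02 to 5.22 in replicate 2.

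The peaks that stand out differ in shape. On scaffold 2 the highest fold of replicate 1 among the peaks found in both libraries was 27.0, at a narrow peak of 230 bp from 24429254 to 24429483 with 146 fragments over a background of 4.43. In replicate 2 the peak at the same place, its summit 1 bp away, had a fold of 15.6 with 64 fragments and ranked 32 on the scaffold, so that the libraries disagreed on its height. On scaffold 6 the highest was from 45087528 to 45088051, with a fold of 18.4 in replicate 1 and 18.8 in replicate 2. That of scaffold 7, from 30765490 to 30766113, had folds of 18.6 and 19.5 and 201 and 264 fragments, and that of scaffold 13 ran from 14445900 to 14446599, with folds of 17.9 and 19.2. The last 3 were 524 to 700 bp wide in replicate 1, and ranked first or second on their scaffolds in replicate 2.

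The widest peaks of the 4 scaffolds were of moderate height. That of scaffold 2, from 10396985 to 10398978 in replicate 1, was 1994 bp wide there and 2071 bp in replicate 2, with a fold of 6.36 and 6.80. That of scaffold 7, from 25955689 to 25957559, was 1871 and 1882 bp wide with folds of 5.41 and 6.17, and its summit lay 790 bp apart in the 2 libraries. That of scaffold 13, from 21629868 to 21631686, was 1819 and 1834 bp wide, and that of scaffold 6, from 25671599 to 25673373, was 1775 and 1864 bp. Their folds were 6.10 and 4.95 on scaffold 13 and 5.32 and 5.05 on scaffold 6. The background under these 4 peaks was high, from 11.4 to 20.8 fragments in replicate 1, and each was the widest or second widest of its scaffold in replicate 2.

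Accessible sites were spaced by several kb. The median distance between neighbouring summits was 8.65 kb in replicate 1 and 8.37 kb in replicate 2, with quartiles of 3.68 and 19.0 kb and of 3.49 and 18.3 kb. By scaffold it was 8.61 and 8.50 kb on scaffold 2, 8.72 and 8.37 kb on scaffold 6, 8.57 and 8.12 kb on scaffold 7 and 8.77 and 8.68 kb on scaffold 13. Both values of scaffold 13 were above those of scaffolds 2 and 7, and the ranges of all other pairs overlapped. Within each library scaffold 13 was highest and scaffold 7 lowest. Scaffold 13 nevertheless had the most close pairs: 7.36% and 7.54% of its distances were under 1 kb, against 5.53% and 6.25% on scaffold 6, 5.90% and 6.49% on scaffold 7 and 6.17% and 6.52% on scaffold 2. Distances over 50 kb were 5.11% and 4.62% of all, and together they took up 26.2% and 25% of the length of the 4 scaffolds. The 10 other scaffolds without a listed centromere had a median spacing of 8.73 ± 0.321 kb, which differed from the 8.51 ± 0.203 kb of the 4 by -0.226 ± 0.118 kb (4 minus 10; lower in 2 of 2 libraries, exact permutation p = 0.5). The size of this difference depended on the setting: it was -0.119 kb without scaffold 9, -0.142 kb without replicate 1, -0.356 kb at a minimum -log10 q of 5 and -0.525 kb for peaks found in both libraries.

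**Figure D4:**
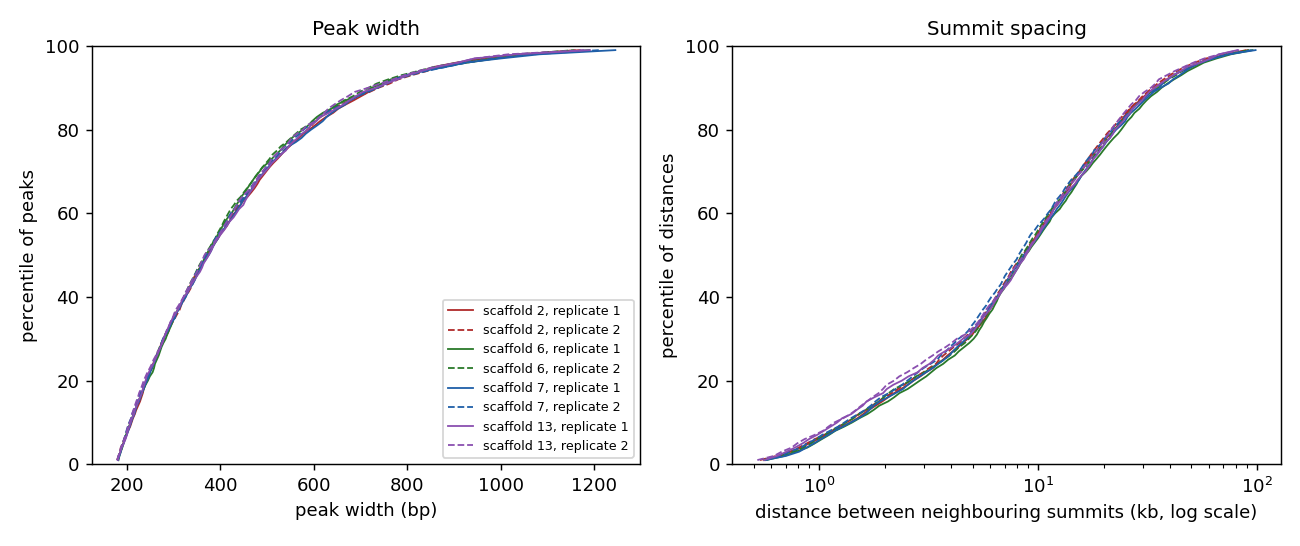
Cumulative distributions of peak width in bp (left) and of the distance between neighbouring summits in kb on a log scale (right), from the 1st to the 99th percentile, for each of scaffolds 2, 6, 7 and 13 in both libraries. The curves nearly coincide, with medians of 366 to 375 bp and 8.12 to 8.77 kb, and the spacing curves bend near 5 kb.

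The distances did not fall off smoothly. Counted per kb, they were most frequent from 1 to 2 kb, with 1152 in replicate 1 and 1260 in replicate 2, and declined to 529 and 572 from 4 to 5 kb. From 5 to 6 kb there were more again, 711 and 742, and from there the number fell to 414 and 450 from 9 to 10 kb. The same rise was present in the 10 other scaffolds without a listed centromere, from 529 and 570 to 680 and 761. The background at the summit changed at the same distance. Peaks with their nearest neighbour 4 to 5 kb away had a median background of 6.59 and 6.31 fragments, and 6.02% and 5.64% of them stood at the genome-wide floor, while those with a neighbour 5 to 6 kb away had 5.18 and 4.73 fragments and 12.9% and 13.6% at the floor. MACS by default takes the local background from a window around each position, which a close neighbour can enter. The sources used here do not give its size, and the part of the background in the dip below 5 kb was not tested.

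Peak shape was also compared by the distance to the nearest summit. Of the peaks on the 4 scaffolds, 12.3% ± 0.642 had another summit within 1 kb, 41.9% ± 0.512 had the nearest at 1 to 5 kb, 40.2% ± 0.662 at 5 to 20 kb, 5.19% ± 0.479 at 20 to 50 kb and 0.441% ± 0.0128 at 50 kb or more (SD, n = 2). The median width was 316 ± 2.83 bp in the closest class, 362.5 ± 0.707 bp at 1 to 5 kb and 402 ± 1.41 bp at 5 to 20 kb, and lower again beyond that, with 387 ± 1.77 bp at 20 to 50 kb and 354 ± 21.6 bp at 50 kb or more. The median fold was 4.21 ± 0.139, 4.70 ± 0.154 and 5.73 ± 0.354 in the classes up to 20 kb, and 5.84 ± 0.192 and 5.74 ± 0.337 in the others. The fragments at the summit were 30, 37, 30.5, 28 and 25.8 in the 5 classes, so fold and fragments did not follow the same order. The 54 most isolated peaks of each library, with no summit within 50 kb, had a median of 26 fragments in replicate 1 and 25.5 in replicate 2. Of these isolated peaks 75.9% and 70.4% had a partner in the other library.

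The longest stretches without a peak in either library were short on 3 of the scaffolds and long on scaffold 13. The 3 longest were 192, 185 and 182 kb on scaffold 2, 212, 202 and 180 kb on scaffold 6 and 216, 194 and 186 kb on scaffold 7. On scaffold 13 the stretch at its start measured 893 kb, and the next were 129 kb, from 17088913 to 17217547, and 122 kb, from 14762497 to 14884471. On scaffold 2 both stretches that lead the list, from 40278293 to 40470137 and from 39585905 to 39771352, lay in its peak-poor domain, and the next ran from 7297621 to 7479698. On scaffold 7 the longest, from 17408883 to 17625368, lay apart from the domain, but those from 27203204 to 27397288 and from 27576127 to 27761928 lay inside it. On scaffold 6 the longest ran from 14505540 to 14717622, the next from 28812441 to 29014079, in the 1 Mb left of the domain, and that from 29963459 to 30143518 was inside. Of the 12 stretches, 6 thus lay inside a peak-poor domain, a count that the definition of a domain favours.

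In all, 71 stretches of over 100 kb without a peak lay on the 4 scaffolds, 27 on scaffold 2, 18 on scaffold 6, 20 on scaffold 7 and 6 on scaffold 13. That is 3.90 per 10 Mb, against 6.49 on the 10 other scaffolds without a listed centromere, 4.63 on these without scaffold 9 and 6.44 on the arms of the 8 scaffolds with a centromere. They made up 5.62% of the length of the 4 scaffolds. Scaffold 13 had the fewest per length, 2.42 per 10 Mb, although it had the longest one.

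The most crowded 10 kb of each scaffold held 5 to 7 summits. On scaffold 2 it ran from 57633165 to 57643164, inside the longest peak-rich domain, with 7 summits in each library, all found in both. The peaks there were 183 to 701 bp wide in replicate 1 with folds of 2.48 to 5.10, over a background of 13.3 to 20.8 fragments. On scaffold 6 the stretch from 8660706 to 8670705 held 6 in each library, and on scaffold 7 that from 2741286 to 2751285 held 5 in each. On scaffold 13 the stretch from 22819461 to 22829460 held 6 and 5, of which 5 overlapped between the libraries. The stretches of scaffolds 6, 7 and 13 lay outside the peak-rich domains. None of the folds in the 4 stretches was above 6.16, so these were clusters of moderate peaks.

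The scaffold ends ranged widely. The first Mb held 30 and 40 summits on scaffold 2, 50 and 53 on scaffold 6 and 41 and 44 on scaffold 7, against 3 and 4 on scaffold 13. The last Mb held 54 and 52 on scaffold 2, 70 and 86 on scaffold 6, 44 and 47 on scaffold 7 and 86 and 76 on scaffold 13. The median of these 8 ends was 48.5 summits, and that of the 32 other scaffold ends outside centromeres was 56.8, with a range of 10.5 to 89.0. Peaks reached close to the ends of the sequence: the outermost peak lay 4.26 to 67.3 kb from the end, except at the start of scaffold 13 in replicate 1.

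Peaks of the 4 scaffolds were found again in the other library slightly more often than those of most other scaffolds. A peak was counted as found in both libraries when it shared at least 1 bp with a peak of the other one. In replicate 1 this held for 10008 of 12008 peaks, or 83.3%, where 82.2% of its whole list, the 4 scaffolds included, was shared. In replicate 2 it held for 10004 of 12510, or 79.97%, where 77.9% of the whole list was shared. By scaffold the shares were 83.3% and 80.9% on scaffold 2, 83.3% and 79.1% on scaffold 6, 83.5% and 79.5% on scaffold 7 and 83.3% and 80.01% on scaffold 13. The share of the 4 was 1.3 ± 0.27 percentage points above that of the 10 other scaffolds without a listed centromere (higher in 2 of 2 libraries, exact permutation p = 0.5). The arms of the 8 scaffolds with a centromere had 81.3% and 75.9%. The mean shares of the 4 ranged from 81.2% to 82.1%. Of the 18 other scaffolds, with centromeres left out, 15 lay below this range, 3 within it and 0 above it. Summits of overlapping peaks lay 39 bp apart in the median, and 59.4% of them were within 50 bp. The widths of partners had a Spearman correlation of 0.752 and their folds of 0.873 over 10008 pairs.

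Whether a peak was found again went with its strength. Of the peaks with a -log10 q of 2 to 5, 43.4% of replicate 1 and 36.9% of replicate 2 had a partner, of those of 5 to 10 it was 74.4% and 66.6%, and of those of 10 to 20 it was 96.9% and 91.4%. At 20 to 50 the shares were 99.9% and 99.6%, and all 950 and 1384 peaks of 50 or more had one. The 2000 peaks of replicate 1 and 2506 of replicate 2 without a partner had a median width of 231.5 and 234 bp and 19 fragments at the summit in each library. Those with a partner had 412 and 416 bp and 37 and 39 fragments. In the weakest class the shares by scaffold went from 40.2% on scaffold 6 to 45.9% on scaffold 7 in replicate 1 and from 33.0% on scaffold 6 to 38.9% on scaffold 2 in replicate 2.

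**Figure D5:**
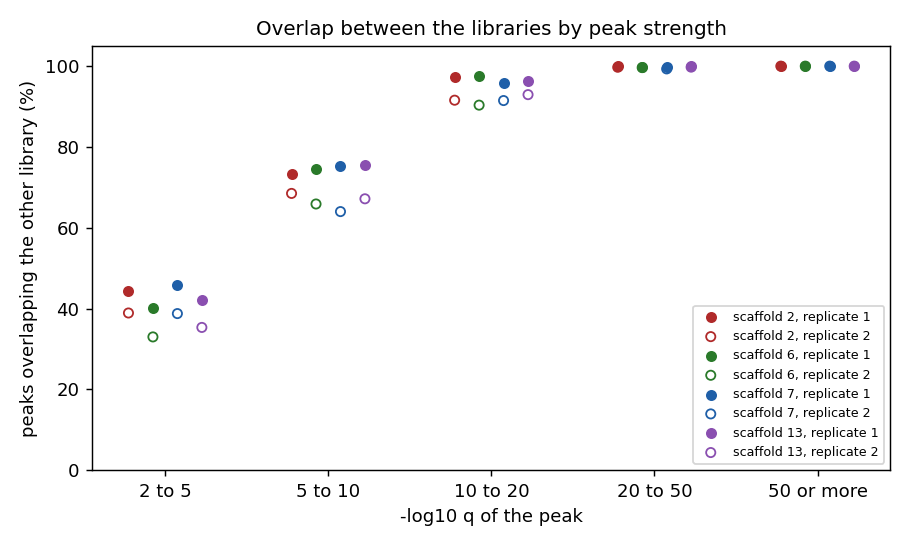
Percent of peaks found in both libraries (vertical axis) by the -log10 q of the peak (horizontal axis), for each of scaffolds 2, 6, 7 and 13; filled points are replicate 1 and open points replicate 2. The shares go from 33.0% to 45.9% in the weakest class to 100% in the strongest.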

How the data were processed

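Reads were trimmed by the authors with fastp 0.20.0. BWA-MEM 0.7.17 placed them on the assembly of the species. SAMtools 1.16.1 (-q 30) then took out duplicates and reads with several positions. Peaks were called for each library alone with MACS 3.0.0, at q 0.01. The reads were paired, with 151 cycles per end. How many reads from repeats this removed is not known. The sources used here give no genome size, read shift, extension or control. For each peak the deposited lists hold a start, an end, a summit, a fold enrichment ratio, a -log10 p-value, a -log10 q-value and a score, which was not used. Coordinates count from 1 on the authors' scaffolds; scaffold lengths and centromere intervals came from the study's supplementary list.

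Fragments k and background b at a summit were solved from fold = (k + 1)/(b + 1) and the Poisson p-value, and the read depth itself is not known. Each value was computed per library and then averaged, with the SD over 2 libraries. Scaffolds and peaks are not replicates, so tests were exact two-sided sign-flip permutation tests over the libraries. Members, measures and named regions were chosen with earlier results of these data known. Named were, per scaffold, all domains, the 2 fullest and 2 emptiest 1-Mb windows, the 3 longest stretches without a peak, the highest and the widest peak of replicate 1 with a partner, the fullest 10 kb and both ends. The counts of distances per kb and the window values without scaffold 9 were added after the data were seen. Domain calls, density, spacing, overlap, fragment numbers and the sign-flip test were first checked on simulated data with known answers. Widths, empty windows, stretches without a peak, variance ratios and neighbour correlations were not checked in this way. Alternatives were a -log10 q of at least 5, peaks found in both libraries, midpoints, other windows, an overlap of 50%, peak-to-peak length, and leaving out scaffold 9 or a library. Scripts ran in Python 3.11.15 with scipy 1.17.1, pandas 2.3.3, numpy 2.4.6 and matplotlib 3.10.9.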

Additional observations from a re-analysis of the deposited data

How the results depend on the processing

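Of 58 recomputed values, 50 kept their direction and, for counts and levels, stayed within 1.5 times or 1 SD of the value reported. The density of 67.4 summits per Mb on the 4 scaffolds was 57.0 at a minimum -log10 q of 5 and 55.0 for peaks found in both libraries. The 13 peak-rich domains were 20 with only peaks found in both libraries and 4 with runs of 4 windows of 250 kb; peak-poor domains numbered 3 to 6. The width difference to the 10 other scaffolds turned to -0.25 bp with only peaks found in both libraries, and the difference in empty 100-kb windows to 0.0128 percentage points without scaffold 9. Without that scaffold, the variance ratio of the 10 was 3.40 and their neighbour correlation 0.0552, both then below those of the 4. The density difference to the 10 fell from 5.64 to 1.15 summits per Mb without it, though it is counted among the 50 because its direction was kept. The spacing difference ranged from -0.525 to -0.119 kb. With 1 library left out, the density was 66.0 to 68.8, its difference to the 10 other scaffolds 5.55 to 5.74 and to the arms 7.31 to 8.57 summits per Mb, and poor and rich domains numbered 4 to 5 and 11 to 15. Of the 4 peak-poor domains, 2 were found under all 6 settings compared, and of the 13 peak-rich ones 1. The peak lists hold no region with fewer than 11 fragments at its summit, so weaker sites could not be seen. Both libraries belong to 1 group, so no groups of samples could be compared, and the tests compared sets of scaffolds within each library.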
